A study of Mus musculus with 6 samples.

Results

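Transcripts of 9 genes were followed: the metalloprotease inhibitor genes Timp1, Timp2 and Timp3, the ADAM protease genes Adam8, Adam10, Adam17 and Adam19, and the matrix metalloprotease genes Mmp9 and Mmp14. They are the genes with these symbols in the deposited expression table, 9 of its 34745 genes, and each symbol matched 1 gene. The genes were selected on their measured levels and fold changes in the PM2.5 against PBS comparison, so their own differences are given as a description, with an SE and no p-value. RNA-seq was run on CD4 T cells derived from naive spleen cells of female C57BL/6 mice aged 6 weeks. All cultures were stimulated with plate-bound antibodies to CD3 and CD28 for 4 days in Th17 conditions: 20 ng/ml IL-6, 10 ng/ml IL-23, 2 ng/ml TGF-beta and 5 ng/ml IL-2, plus antibodies against IFN-gamma and IL-4 at 5 µg/ml each. At 6 hours either PM2.5 (fine airborne particulate matter, 100 µg/ml of suspension) or PBS as a mock treatment was added, with 3 libraries in each group. Stimulation and cytokines were shared by both groups, so neither describes resting T cells. The labels do not say whether the 3 libraries of a group came from separate mice or cultures, so p-values measure the spread between these libraries only, which may be technical.

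Metalloproteases of the ADAM and MMP families cut proteins at the cell surface and in the extracellular matrix, using a zinc ion in their active site. ADAM10 and ADAM17 are membrane-anchored sheddases: they release the outer parts of receptors, adhesion molecules and cytokines, among them Notch receptors and TNF in T cells. TIMPs are small secreted proteins that plug the active site, each with its own range of targets. TIMP-2 also binds MMP14 at the membrane in the step that activates pro-MMP2, and TIMP-3 is the family member best known for inhibiting ADAM17.

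Transcripts of both abundant inhibitors were lower with PM2.5, Timp2 about 7.86-fold and Timp1 2.15-fold, whereas those of the sheddase Adam17 were 1.54-fold higher and those of Adam19 2.37-fold lower. Of the 7 members with enough counts to test, 5 passed as lower (Timp1, Timp2, Adam8, Adam19 and Mmp14), 1 as higher (Adam17) and 1 did not pass (Adam10), at an adjusted p of 0.05 in edgeR. In the same comparison 70.6% of all 12967 genes tested passed, 35.3% as lower and 35.2% as higher. That even split depends on the scaling, since with library totals 5078 genes were lower and 4053 higher. Of the 7 members tested, 4 passed as lower by at least 2-fold (Timp1, Timp2, Adam19 and Mmp14) and 0 as higher by that much. Over all genes tested 12.4% and 6.51% did. The libraries of PBS and PM2.5 were separated in CPM for 6 of the 7, all but Adam10, against 74.9% of all genes tested. Since these values chose the members, nothing is read from the shares. In bulk RNA, fewer cells that express a gene and less RNA per cell cannot be told apart.

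Library totals were 19511561 to 22353131 counts in the PBS group and 25397965 to 27215853 in the PM2.5 group. Levels are CPM, counts per 1000000 of the library total scaled by edgeR's TMM factors, unless FPKM is named. The 8 T cell markers, Cd3e, Cd4 and Trac among them, summed to 3696 to 3746 CPM with PBS and 3244 to 3278 CPM with PM2.5. Of these 6 passed as lower, those 3 included, and 2 as higher, Cd28 (0.59 on the log2 scale) and Cd5 (0.10). The 11 macrophage and monocyte markers summed to 5.27 to 7.20 against 3.08 to 3.70 CPM, with Lyz2, C1qa, C1qb and Cd163 at 0 counts in all 6 libraries. The 10 neutrophil markers summed to 5.29 to 6.14 against 0.563 to 0.705 CPM, nearly all of it Ly6g, with S100a8, S100a9, Elane, Camp and Csf3r at 0. The 12 stromal and endothelial markers summed to 84.0 to 89.4 against 52.2 to 55.8 CPM, most of it Pecam1, with Col3a1 at 0. Of the 4 tested, Pecam1 (-0.75 on the log2 scale), Col1a1 (-1.22) and Col1a2 (-2.12) passed as lower and Lum (0.80) as higher. NK cell markers (8) went from 13.9 to 17.9 CPM down to 6.69 to 8.69 CPM, with Ncr1 and Klra8 at 0. For CD8 and gamma-delta T cells, the 6 markers found in the table summed to 73.8 to 75.6 against 28.7 to 32.3 CPM. Of the 5 tested, 4 passed as lower and 1 as higher. The CD8 genes were split, with Cd8a at -0.86 on the log2 scale and Cd8b1, the 1 that rose, at 0.55. The 8 B cell markers summed to 4.38 to 5.39 against 21.2 to 22.1 CPM, through Ebf1, while Cd79b, the other one tested, passed as lower (-2.59 on the log2 scale, adjusted p = 0.000652) and Ms4a1 and Fcer2a were at 0. The 8 dendritic cell markers summed to 2.21 to 3.22 against 3.01 to 3.94 CPM: Zbtb46 passed as higher (2.54), Batf3 (-2.01) and Itgax (-1.17) as lower, and Clec9a, Siglech and Cd209a were at 0. Of the 8 erythroid and platelet markers 7 were at 0, and their sum did not exceed 0.133 CPM. The part of these marker differences in the results below was not tested.

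Timp2 (ENSMUSG00000017466, mm10 chromosome 11, 118301069 to 118355740, minus strand) encodes the inhibitor that pairs with MMP14. Its transcripts stood at 252, 246 and 245 CPM in the PBS libraries and at 31.6, 32.2 and 30.8 CPM in the PM2.5 libraries. Every PBS library lay far above every PM2.5 library, and replicates of a group differed by a few percent only. The means were 248 ± 3.80 and 31.5 ± 0.72 CPM (SD, n = 3), a log2 fold change of -2.98 (SE 0.04), and only 164 of the 12967 genes tested had a lower value. An intron of Timp2 holds another gene on the same strand, named BC100451 in the table, which shares no annotated exon base with it. BC100451 had 57, 35 and 56 counts with PBS and 4, 8 and 11 with PM2.5 (-2.89 on the log2 scale, SE 0.32, adjusted p = 1.58e-05). How reads in the shared intron were assigned is not given in the sources used here.

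Timp1 (ENSMUSG00000001131, chromosome X, 20870166 to 20874735, plus strand) encodes a broad matrix metalloprotease inhibitor that is also known to inhibit ADAM10. It measured 220, 240 and 211 CPM with PBS and 93.4, 115 and 104 CPM with PM2.5. The PBS libraries were again all above the PM2.5 libraries, with a wider spread than for Timp2. The means were 224 ± 14.7 and 104 ± 10.6 CPM (SD, n = 3), a log2 fold change of -1.11 (SE 0.09). Timp1 lies inside Syn1, a synapsin gene on the opposite strand, and the strand setting of the counting is not given. Syn1 had 1018, 841 and 985 counts with PBS and 468, 454 and 461 with PM2.5 (-1.27 on the log2 scale, SE 0.06, adjusted p = 1.09e-08). GENCODE M21 gives Timp1 and Syn1 no shared exon base, but without the strand their reads cannot be fully told apart.

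Timp3 (ENSMUSG00000020044, chromosome 10, 86300372 to 86349506, plus strand), the inhibitor gene most tied to ADAM17, was near absent. It had 2, 5 and 3 counts in the PBS libraries and 2, 1 and 1 in the PM2.5 libraries, below the filter on low counts in both groups. Over the group totals the ratio of PM2.5 to PBS was 0.325, with an exact 95% interval of 0.0745 to 1.13 that covers counting error only, so a difference was not detectable at this depth. Syn3, which overlaps Timp3 on the opposite strand and shares 1733 exon bases with it, had 10 counts with PBS and 5 with PM2.5.

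**Figure D1:**
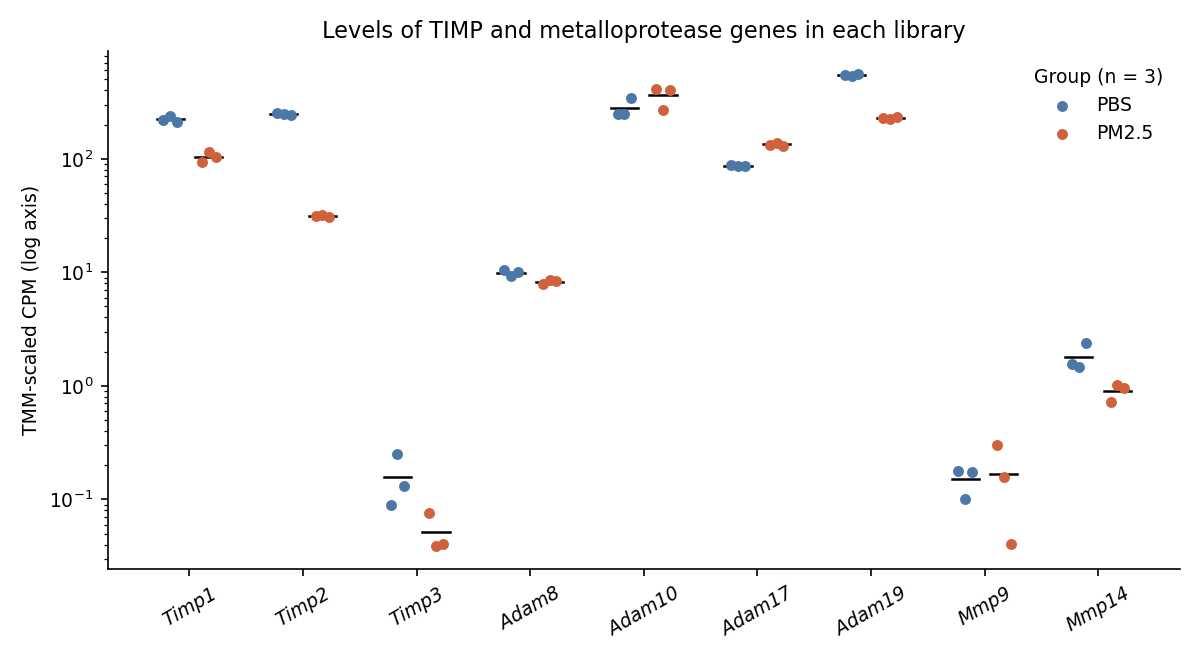
TMM-scaled CPM (log axis) of the 9 genes in each library, with 3 PBS libraries in blue, 3 PM2.5 libraries in red and black lines for group means. Timp1, Timp2 and Adam19 are lower and Adam17 is higher in every PM2.5 library, Adam10 overlaps between groups, and Timp3 and Mmp9 stay at or under 0.301 CPM.

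Adam17 (ENSMUSG00000052593, chromosome 12, 21323509 to 21373632, minus strand), which encodes the TNF-releasing sheddase TACE, was the only member that passed as higher. It stood at 87.9, 86.5 and 87.0 CPM with PBS and at 133, 138 and 130 CPM with PM2.5. The lowest PM2.5 library lay well above the highest PBS library. The means were 87.1 ± 0.73 and 134 ± 3.95 CPM (SD, n = 3), a log2 fold change of 0.62 (SE 0.04), and 1956 of the 12967 genes tested had a higher value. Adam17 shares 311 exon bases with Iah1 on the opposite strand. Iah1 was less abundant, at 15.0 ± 0.92 and 20.0 ± 1.70 CPM, and rose by 0.42 on the log2 scale (SE 0.08, adjusted p = 0.00106).

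Adam10 (ENSMUSG00000054693, chromosome 9, 70678997 to 70780229, plus strand) encodes the sheddase that makes the first regulated cut in Notch receptors. Its libraries measured 248, 246 and 341 CPM with PBS and 410.4, 269.6 and 404 CPM with PM2.5. PBS replicate 3 stood above the other PBS libraries and PM2.5 replicate 2 below the other PM2.5 libraries, so the groups overlapped. The means were 279 ± 54.3 and 361 ± 79.6 CPM (SD, n = 3), and the log2 fold change of 0.37 (SE 0.24) did not pass. It ranged from 0.28 to 0.55 over the 14 alternatives and passed in none of them. The highest over the lowest library was 1.39 in the PBS group and 1.52 in the PM2.5 group, where the medians over the 2635 genes averaging 100 CPM or more were 1.06 and 1.04. Only 17 of those genes, Adam10 included, were spread at least this widely in both groups.

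**Figure D2:**
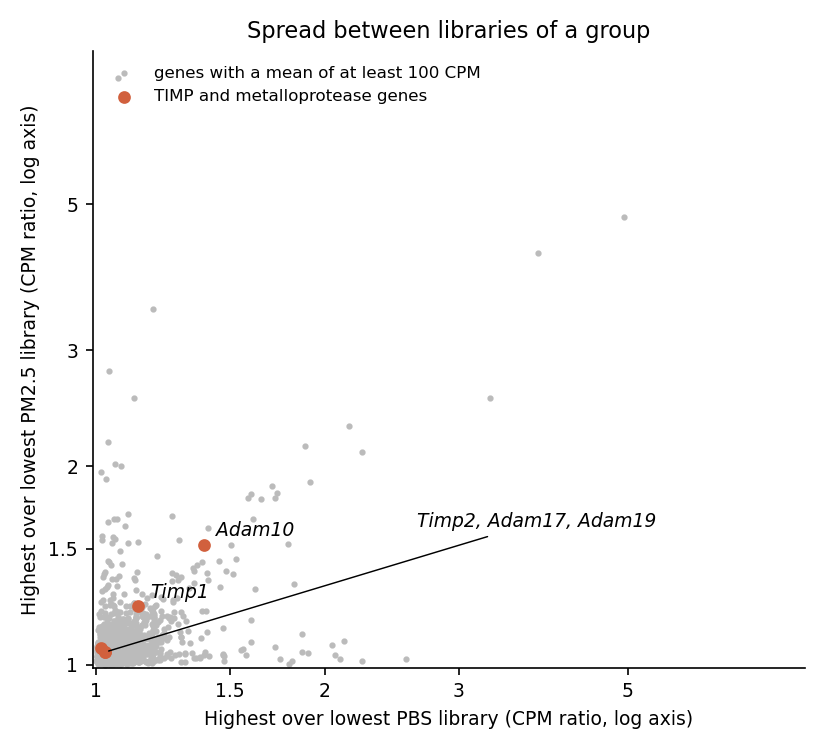
Ratio of the highest to the lowest library of a group in CPM, PBS on the x axis and PM2.5 on the y axis (both log axes), for 2635 genes averaging 100 CPM or more (grey) and the 5 genes of the set that reach it (red). Adam10 (1.39 and 1.52) lies apart from Timp2, Adam17 and Adam19, whose replicates differ by 1.06-fold or less.

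Adam19 (ENSMUSG00000011256, chromosome 11, 46055992 to 46147343, plus strand), which encodes meltrin beta, a protease known for processing neuregulin, was the most abundant of the protease genes with PBS. It stood at 544, 540 and 555 CPM with PBS and at 230, 225 and 235 CPM with PM2.5. The groups were far apart and their replicates close together. The means were 546 ± 7.41 and 230.3 ± 5.12 CPM (SD, n = 3), a log2 fold change of -1.25 (SE 0.03). The antisense genes annotated within Adam19, Gm16033 and Gm16034, had 0 counts in all 6 libraries.

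Adam8 (ENSMUSG00000025473, chromosome 7, 139978932 to 139992562, minus strand), a protease gene of leukocytes whose product escapes TIMPs, measured 10.4, 9.27 and 10.1 CPM with PBS and 7.93, 8.54 and 8.37 CPM with PM2.5. The groups did not overlap, but the difference was small, with a log2 fold change of -0.26 (SE 0.08). Its call was lost with DESeq2 and without PBS replicate 1, PBS replicate 3 or PM2.5 replicate 1.

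Mmp14 (ENSMUSG00000000957, chromosome 14, 54431612 to 54441265, plus strand) encodes MT1-MMP, a membrane-anchored collagenase. It had 35, 29 and 55 counts with PBS and 19, 26 and 24 with PM2.5, or 1.55, 1.46 and 2.39 against 0.714, 1.02 and 0.966 CPM. The groups did not overlap at this low level, and the log2 fold change of -1.01 (SE 0.26) was less precise than those of the abundant members. On log2(FPKM + 1), which draws low values together, it was -0.19. Mmp9 (ENSMUSG00000017737, chromosome 2, 164940780 to 164955850, plus strand), which encodes the secreted gelatinase B, had 4, 2 and 4 counts with PBS and 8, 4 and 1 with PM2.5. It was below the filter, and the ratio over group totals was 1.06 with an exact 95% interval of 0.428 to 2.69 (counting error only).

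Upstream sequences are shown for the members that moved furthest, the 3 with the largest falls among the abundant genes and Adam17. RefSeq promoter windows of the GRCm38.p6 build (the mm10 build), 250 bases before to 50 after a start, were found for 8 of the 9 members, and for Adam19 the window nearest the gene's start in the table was taken. Capitals mark every GC box (GGGCGG), AP-1 motif (TGANTCA) and XRE core (GCGTG, the core of the element bound by the aryl hydrocarbon receptor) on either strand, and these motifs share no base with each other here. Each is written 5′ to 3′ on the strand of its gene.
Timp2, chr11:118355362-118355661, minus strand: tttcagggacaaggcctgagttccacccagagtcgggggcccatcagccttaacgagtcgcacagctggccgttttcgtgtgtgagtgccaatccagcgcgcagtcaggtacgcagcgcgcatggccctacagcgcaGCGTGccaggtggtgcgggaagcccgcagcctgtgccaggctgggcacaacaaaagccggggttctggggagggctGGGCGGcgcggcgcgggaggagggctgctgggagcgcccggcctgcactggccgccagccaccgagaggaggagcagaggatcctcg
Timp1, chrX:20869916-20870215, plus strand: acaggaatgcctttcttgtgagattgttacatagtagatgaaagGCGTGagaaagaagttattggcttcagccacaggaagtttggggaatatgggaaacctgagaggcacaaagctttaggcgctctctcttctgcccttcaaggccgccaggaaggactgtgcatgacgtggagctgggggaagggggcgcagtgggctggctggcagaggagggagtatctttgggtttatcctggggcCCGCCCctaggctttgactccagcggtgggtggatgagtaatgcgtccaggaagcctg
Adam19, chr11:46055734-46056033, plus strand: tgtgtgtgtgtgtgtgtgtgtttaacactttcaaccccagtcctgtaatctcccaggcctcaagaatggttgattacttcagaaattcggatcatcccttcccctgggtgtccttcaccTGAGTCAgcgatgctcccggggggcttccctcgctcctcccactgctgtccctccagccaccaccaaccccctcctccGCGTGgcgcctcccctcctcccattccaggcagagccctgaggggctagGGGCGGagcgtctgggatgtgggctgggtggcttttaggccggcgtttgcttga
Adam17, chr12:21373583-21373882, minus strand: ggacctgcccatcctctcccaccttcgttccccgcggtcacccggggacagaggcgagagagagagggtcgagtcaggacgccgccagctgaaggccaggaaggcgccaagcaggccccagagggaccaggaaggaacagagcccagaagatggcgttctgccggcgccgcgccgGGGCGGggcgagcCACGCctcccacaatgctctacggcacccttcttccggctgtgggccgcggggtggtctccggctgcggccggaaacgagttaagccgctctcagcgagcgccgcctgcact
A GC box was present in all 8 member windows, against 35.7% of the 32851 windows of the table. An XRE core was present in 6 of 8, both TIMPs above and Adam17 among them, against 32.4%. The AP-1 motif was present only in that of Adam19, against 7.81% of all windows, and an E-box (CACGTG, 7.15%, not capitalised) only in that of Adam10. Neither the CRE (TGACGTCA, 1.79%) nor the ATF4 element (TGATGNAA, 3.97%) was found in any of the 8. The member windows ranged from 52.3 to 73.3% GC, against a median of 52.7% over all windows, and the part of base composition in these shares was not tested.

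Levels can be compared between genes only per length, for which the deposited FPKM were used. With PBS the order was Timp1 (165 ± 10.1), Adam19 (75.1 ± 1.39), Timp2 (61.9 ± 0.93), Adam10 (45.7 ± 9.15), Adam17 (8.25 ± 0.09), Adam8 (1.58 ± 0.10), Mmp14 (0.319 ± 0.093), Mmp9 and Timp3 (FPKM, SD, n = 3). Only the last pair, both under 0.05 FPKM, overlapped as neighbours in that order. With PM2.5 the order was Timp1 (73.4 ± 7.50), Adam10 (56.7 ± 12.5), Adam19 (30.3 ± 0.68), Adam17 (12.1 ± 0.35), Timp2 (7.53 ± 0.17), Adam8 (1.26 ± 0.05), Mmp14 (0.152 ± 0.028), Mmp9 and Timp3. No neighbours overlapped there, though Timp1 and Adam10 came close, with 66.0 FPKM in the lowest library of the first and 64.4 in the highest of the second. In these FPKM Timp2 thus went from above Adam10 and Adam17 to below both. How far apart Timp2 and Adam10 lay with PBS depends on the lengths used. Behind the FPKM these were 4092 bases for Timp2 and 6236 for Adam10, against 3896 and 4913 exon bases in GENCODE M21. The GENCODE lengths would raise Adam10 more than Timp2. Their PBS libraries would then overlap, but the order of their means would not reverse. Among genes tested Timp2 stood at the 94.9th percentile of FPKM with PBS and the 59.2nd with PM2.5, whereas Timp1 stayed at the 98.7th and 96.1st.

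The summed FPKM of the 3 TIMP genes were 225, 238 and 218 with PBS and 73.6, 88.7 and 80.5 with PM2.5. The summed FPKM of the 6 protease genes were 126, 124 and 143 against 108, 85.9 and 108. Both sums were lower in every PM2.5 library than in any PBS library, the inhibitor sums by more. The ratio of the sums was 1.79, 1.92 and 1.53 in the PBS libraries and 0.681, 1.03 and 0.748 in the PM2.5 libraries, with no overlap. Timp1 made up 71.8 to 74.3% of the TIMP sum with PBS and 89.7 to 91.3% with PM2.5. Adam19 went from 53.5 to 59.6% of the protease sum to 28.0 to 34.5%, and Adam10 from 32.4 to 39.3% to 49.2 to 59.6%. These are ratios of transcripts chosen with their values known and not of protein, and they depend on gene length. They do not pair inhibitors with targets, since each TIMP has its own range and the Adam8 product escapes TIMPs. Some metalloprotease genes outside the 6 reached levels like that of Adam17 and are not in the sum. Examples are Adam9 (15.0 FPKM with PBS and 9.38 with PM2.5), Adamts6 (14.5 and 12.4) and Mmp13 (0.939 and 12.7). With the exon lengths of GENCODE M21, an alternative chosen after seeing the data, the ratio was 1.85 to 2.37 with PBS and 0.831 to 1.27 with PM2.5.

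**Figure D3:**
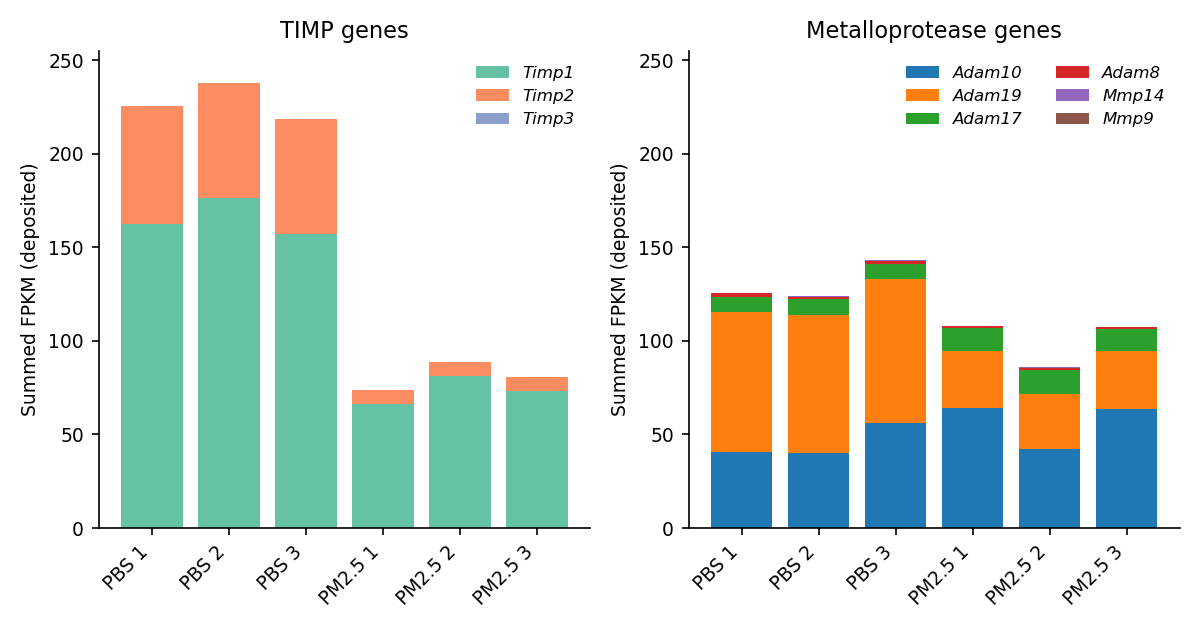
Stacked FPKM of the 3 TIMP genes (left) and the 6 metalloprotease genes (right) in each of the 6 libraries, both axes from 0. TIMP sums are 218 to 238 with PBS and 73.6 to 88.7 with PM2.5, while protease sums are 124 to 143 and 85.9 to 108.

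Relatives of the members were taken from lists of the same families. The counts of genes that passed in this and the following lists stand beside 70.6% of all genes tested. Of all genes tested 35.3% passed as lower and 35.2% as higher. Of 21 other ADAM genes only 4 had enough counts, 11 having none in any library, and 3 of the 4 fell. Adam12 went from 22.0 ± 1.68 to 10.3 ± 0.87 CPM (SD, n = 3), or -1.09 on the log2 scale (SE 0.09, adjusted p = 1.22e-06). Adam9 (-0.61, adjusted p = 2.71e-06) and Adam15 (-0.38, adjusted p = 3.92e-05) fell less, and Adam1a, at about 1 CPM, stood at -0.35 (adjusted p = 0.249). The median of these 4 genes was -0.50, against -0.01 for all genes tested. With Adam19, Adam8 and Adam17, that made Adam17 the only tested ADAM gene that passed as higher, and Adam10 and Adam1a the only ones that did not pass.

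Other matrix metalloprotease genes moved further, and both ways. All 6 tested of 19 passed, 3 in each direction, where 70.6% of all genes tested passed. Mmp13, a collagenase gene, stood at 1.63, 3.17 and 2.57 CPM with PBS and at 36.3, 33.4 and 34.7 CPM with PM2.5, so the groups were far apart. The difference was 3.83 on the log2 scale (SE 0.17, adjusted p = 5.79e-07). The stromelysin gene Mmp10 rose from 1.58 ± 0.29 to 7.13 ± 0.73 CPM (2.17, adjusted p = 5.82e-07), and the macrophage elastase gene Mmp12, named after its values were seen, rose by 2.33 (adjusted p = 6.15e-05) from a level of 0.360 ± 0.189 CPM. Mmp11 fell from 10.6 ± 1.36 to 2.36 ± 0.23 CPM (-2.17, adjusted p = 1.52e-07) and the membrane-type Mmp15 from 1.37 ± 0.10 to 0.168 ± 0.098 CPM (-2.99, adjusted p = 2.54e-05). Mmp17, another membrane-type gene named after its values were seen, fell by 0.69 (adjusted p = 0.0472). That call was lost in 9 of the 13 alternatives that tested it, among them DESeq2 and leaving out any library but PBS replicate 2. Pro-MMP2, the substrate that TIMP-2 and MMP14 act on together, had no transcript counted: Mmp2 was at 0 in all 6 libraries.

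Of the 19 ADAMTS genes, secreted relatives without a membrane anchor, 5 were tested and all passed, where 70.6% of all genes tested did. Adamts4, an aggrecanase gene, fell from 3.93 ± 1.06 to 0.732 ± 0.240 CPM (-2.43, adjusted p = 1.86e-05), and the more abundant Adamts10 (-0.27, adjusted p = 0.00121) and Adamts6 (-0.16, adjusted p = 0.00812) fell slightly. Adamts3 (1.57, adjusted p = 8.49e-05) and, named after its values were seen, Adamts20 (2.36, adjusted p = 0.00169) rose from under 1 CPM. Among other metalloprotease inhibitors only Reck, which encodes a membrane-anchored inhibitor, was measured: it fell from 12.9 ± 0.65 to 5.68 ± 0.34 CPM (-1.18, SE 0.09, adjusted p = 6.65e-07). Timp4, A2m and Pzp were at 0 counts in all 6 libraries.

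Of 6 genes for TIMP receptors and clearance 4 were tested, 2 rose and 2 fell. Cd74, the invariant chain and a reported TIMP-1 receptor, rose from 21.5 ± 0.41 to 53.9 ± 1.70 CPM (1.32, adjusted p = 4.13e-09), and Itgb1, the integrin beta 1 chain, rose slightly (0.23, adjusted p = 5.85e-05). Lrp1, the endocytic receptor that clears TIMPs and metalloproteases, fell from 7.77 ± 0.93 to 2.85 ± 0.35 CPM (-1.44, adjusted p = 4.81e-06), and the integrin chain Itga3 fell by 0.82 (adjusted p = 3.73e-07).

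Genes that mature and carry the sheddases mostly fell: of 13 tested of 17, 8 fell and 3 rose. Over all genes tested 35.3% passed as lower and 35.2% as higher. The median log2 fold change of the list was -0.55 against -0.01 for all genes tested. Furin, the convertase that removes the inhibitory prodomain of ADAM proteases, went from 992 ± 44.1 to 501 ± 4.52 CPM (-0.99, SE 0.03, adjusted p = 1.98e-09). Tspan14, a tetraspanin that escorts ADAM10 to the surface, stood at 112, 100 and 109 CPM with PBS and at 33.1, 36.2 and 33.5 CPM with PM2.5 (-1.64, adjusted p = 1.53e-09). The groups of both genes were clear of each other. The sorting protein Pacs2 (-1.08, adjusted p = 3.36e-08) and the podosome scaffold Sh3pxd2b (-1.21, adjusted p = 1.71e-07) fell as well. The iRhom genes, whose products bring ADAM17 to the surface, were named after their values were seen. Rhbdf2, the more abundant, fell from 33.6 ± 2.93 to 25.7 ± 0.31 CPM (-0.39, adjusted p = 0.000497), and its partner Frmd8 fell by 0.75 (adjusted p = 3.19e-07). Rhbdf1 rose from 0.444 ± 0.091 to 3.51 ± 0.35 CPM (2.97, adjusted p = 5.16e-07). Also named after their values were seen, the convertase gene Pcsk6 (2.89, adjusted p = 0.000188) and the scaffold gene Dlg1 (0.51, adjusted p = 1.06e-05) rose. Pcsk6 was near the floor, with 1, 3 and 2 counts with PBS and 20, 16 and 19 with PM2.5. Its log2 fold change ranged from 0.095 to 3.34 over the alternatives. Pcsk7 (0.05, adjusted p = 0.335) and Tspan5 (-0.43, adjusted p = 0.276), named in the same way, did not pass. With PM2.5, transcripts of Adam17, Rhbdf1, Pcsk6 and Dlg1 were thus higher and those of Furin, Pacs2, Rhbdf2 and Frmd8 lower. A link between these differences was not tested.

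Known substrates of ADAM10 and ADAM17 changed in both directions: of 20 tested of 23, 12 rose and 7 fell. Over all genes tested 35.2% passed as higher and 35.3% as lower. The median log2 fold change of the list was 0.58 against -0.01 for all genes tested. Tnfrsf1b, the TNF receptor 2 gene, stood at 261, 264 and 254 CPM with PBS and at 94.3, 91.4 and 87.1 CPM with PM2.5 (-1.51, adjusted p = 1.88e-10). Every PBS library was above every PM2.5 library. The decoy receptor gene Il1r2 rose from 4.88 ± 0.83 to 30.4 ± 1.13 CPM (2.64, adjusted p = 6.49e-09) and the CD40 ligand gene Cd40lg from 24.3 ± 0.76 to 77.6 ± 0.94 CPM (1.68, adjusted p = 3.78e-10). The following were named after their values were seen. Tnf rose from 34.9 ± 2.61 to 75.9 ± 2.35 CPM (1.12, adjusted p = 4.46e-08), Tnfsf11, the RANK ligand gene, from 8.35 ± 1.51 to 89.7 ± 3.89 CPM (3.43, adjusted p = 2.09e-07) and the adhesion receptor gene Cd44 by 0.78 (adjusted p = 2.34e-06). Il6ra, the IL-6 receptor gene, fell by 0.72 (adjusted p = 1.12e-07), and the Notch receptors were split, with Notch1 at -0.48 (adjusted p = 9.51e-07) and Notch2 at 0.47 (adjusted p = 2.50e-06). Sema4d did not pass (-0.80, adjusted p = 0.0582), but it passed with DESeq2 (adjusted p = 0.00400), library totals (0.0483), the 5 CPM filter (0.0417) and limma on FPKM (0.0287 and 0.0309). It also passed without PBS replicate 2, which was low at 215 CPM against 409 and 377 (-1.04, adjusted p = 7.20e-08).

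Gamma-secretase is the complex that makes the next cut after ADAM10, and of its 6 subunit genes tested of 7, 2 rose and 2 fell. Psen2 (-0.74, adjusted p = 3.04e-06) and Psenen (-0.67, adjusted p = 0.000119) fell, and Ncstn (0.17, adjusted p = 0.00107) and Aph1a (0.16, adjusted p = 0.0131) rose slightly. The call of Aph1a was lost with library totals, with the 5 CPM filter, with limma on FPKM and without PM2.5 replicate 2. Named after its values were seen, Aph1b (-0.06, adjusted p = 0.691) did not pass.

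The plasminogen activator system is the serine protease cascade that activates several MMPs. In a list of its genes and Bsg, which lies outside the cascade, 3 of 6 tested genes of 8 rose and 2 fell. Plau, the urokinase gene, stood at 18.2, 16.0 and 15.9 CPM with PBS and at 1.69, 1.57 and 1.33 CPM with PM2.5, with wide separation of the groups (-3.44, SE 0.12, adjusted p = 1.62e-09). The inhibitor gene Serpine2 rose by 0.35 (adjusted p = 0.00138) and the urokinase receptor gene Plaur by 1.42 (adjusted p = 0.000565). Named after their values were seen, Serpinb2 rose by 3.24 (adjusted p = 0.000470) from 0.0794 ± 0.0758 CPM, and Bsg, an inducer of MMP transcripts, stood at 0.09 (adjusted p = 0.130) and passed only without PBS replicate 3 (0.15, adjusted p = 0.0127).

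**Figure D4:**
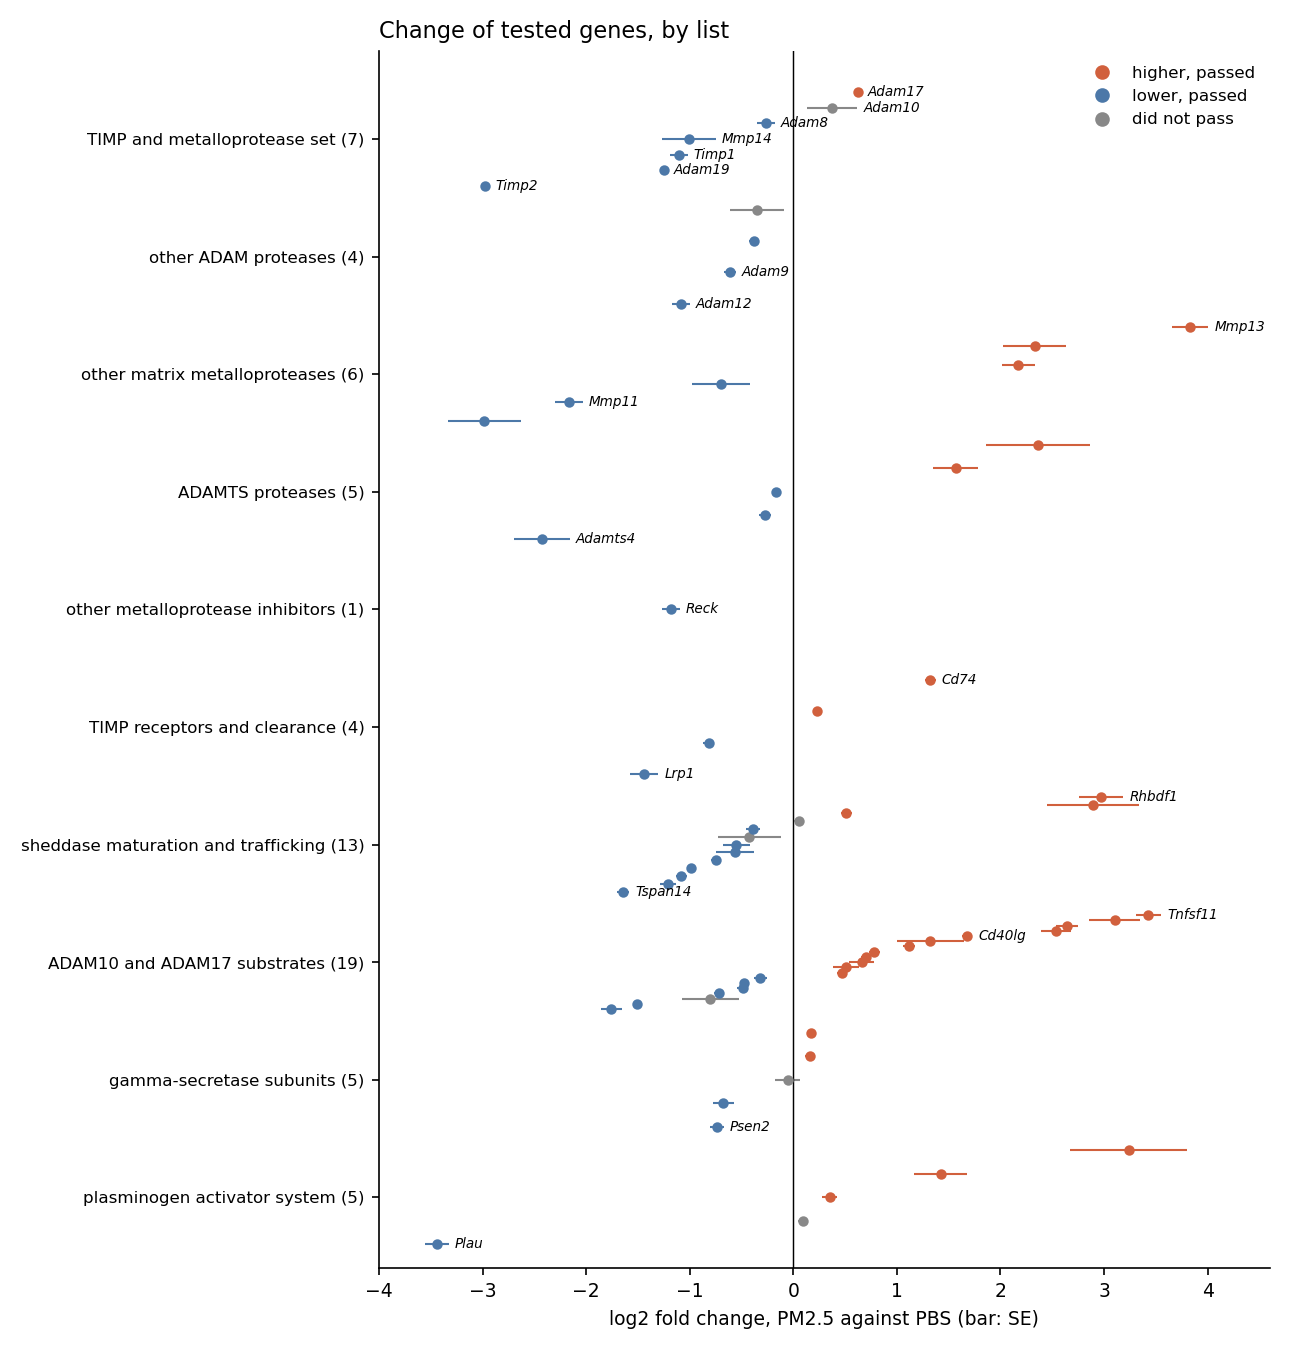
Log2 fold change of PM2.5 against PBS with its SE (bars) for tested genes of the set and of 9 lists of related genes (numbers shown in brackets, 3 list genes left out), red for genes that passed as higher, blue as lower and grey for those that did not pass. The set lies mostly below 0, with Timp2 lowest at -2.98 and Adam17 highest at 0.62, while substrates and other matrix metalloproteases spread to both sides.

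The genes nearest in pattern to Timp2 and Adam17 were sought by Euclidean distance between log2 CPM values centred on each gene's mean over the 6 libraries. For Timp2 these were Sdc1, the syndecan-1 gene (98.7 ± 2.12 to 13.0 ± 0.31 CPM, distance 0.12), the exchange factor gene Arhgef18 (44.3 ± 1.74 to 5.79 ± 0.12 CPM, distance 0.12) and the kinase gene Sgk1 (148 ± 6.63 to 18.3 ± 0.68 CPM, distance 0.14). For Adam17 they were Rad23b, a nucleotide excision repair gene (244 ± 4.42 to 373 ± 7.46 CPM, distance 0.03), the glucosidase II subunit gene Prkcsh (157 ± 3.56 to 244 ± 6.15 CPM, distance 0.03) and the helicase gene Recql4 (29.7 ± 0.13 to 46.0 ± 2.13 CPM, distance 0.04). With 2 groups of 3 libraries, the distance reflects mainly the size of the group difference.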

How the data were processed

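RNA-seq of 6 libraries of polarised mouse CD4 T cells was used, 3 with PBS and 3 with PM2.5. The authors deposited raw counts per Ensembl gene and FPKM, per the file headers. FPKM equalled the count over the library total and 1 fixed length per gene to within 0.00086% for 9540 genes. Per the submitters' processing notes, TopHat2 2.0.6 and mm10 were used. The counting program, annotation and strand setting were not given in the sources used here. Of the gene IDs 34267 were found in GENCODE M21.

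Genes were kept with filterByExpr (minimum count 10, minimum total 15), 12967 in all, and tested in edgeR 4.0.16 (R 4.3.3) with TMM scaling, a robust quasi-likelihood fit, a two-sided F test and Benjamini-Hochberg adjustment over all genes at 0.05. Each SE is the size of the log2 fold change divided by √F. Simulated counts with known changes were used to test the fit. A count of 0 allows up to 0.110 to 0.154 counts per 1000000 of the library total, without TMM scaling (3 counts, counting error only). Pairs of replicates differed by a chi-square of 7.57 to 9.89 per degree of freedom, beyond counting error. Each library was treated as 1 replicate, and these values cannot say whether the spread between libraries is biological or technical.

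The 9 genes and all lists were chosen with earlier results of these data known. Named besides the 9 are up to 4 genes per list with the smallest adjusted p and at least 1 CPM in a group, and the 3 genes nearest in pattern to the largest rise and fall; others are marked as named after their values were seen. A few list genes count in their lists but are not reported here by name. Alternatives were DESeq2 1.42.0, its size factors, library totals, other filters, limma 3.58.1 on log2 of FPKM plus 1 or 0.1, a replicate block and leaving out each library.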

Additional observations from a re-analysis of the deposited data

How the results depend on the processing

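Over 14 alternatives, 8369 (DESeq2) to 9582 (no filter) genes passed, or 7342 of 9923 with the filter at a mean of 5 CPM, against 9149. Members that passed numbered 5 or 6. Timp1, Timp2, Adam17, Adam19 and Mmp14 kept direction and call wherever tested (Mmp14 was not tested at 5 CPM). Adam8 stood at -0.264 with DESeq2, without a call, and at -0.311 to -0.230 without each library, losing its call in 3 of these 6 fits. The 5 CPM filter, which tests fewer genes, left 2 matrix metalloprotease, 2 ADAMTS, 7 sheddase maturation and 2 plasminogen activator genes past the threshold. Pcsk7, near 0, turned to -0.014 with library totals, -0.016 with the 5 CPM filter, and -0.013 with limma at either pseudocount (-0.0126 and -0.0133), and Aph1b ranged from -0.138 to 0.045 without each library, above 0 only without PM2.5 replicate 1; the cause was not tested. Library totals moved the median gene by -0.064 (log2), and the call of Aph1a was lost under that scaling. The TIMP to protease ratio, a mean of 1.75 with PBS and 0.821 with PM2.5, was 2.14 and 1.01 with GENCODE M21 exon lengths, and 1.66 to 1.86 and 0.715 to 0.891 without each library. Timp3 and Mmp9 are limited by depth.

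The libraries of the groups share replicate numbers, and the labels do not say whether these mark pairs. Deviations of same-numbered libraries correlated at 0.013, 0.007 and 0.045, and not every library correlated best with its own number. Whether the libraries were paired cannot be told from these values. With the replicate number as a block 9003 genes passed (4534 higher, 4469 lower), 6 members among them, and of the other genes named only Mmp17 changed its call (adjusted p = 0.0518).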

Other observations

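The spread of Adam10 was looked at further after its values were seen. Among 7439 genes averaging 20 CPM or more, 29 stood at least 1.3 times higher in PBS replicate 3 than in either other PBS library, and 65 stood lower by that factor in PM2.5 replicate 2 than in either other PM2.5 library. Only Adam10 and Zeb1, a zinc finger repressor gene, met both. Zeb1 measured 64.5, 71.6 and 100.5 CPM with PBS and 94.5, 63.4 and 94.7 CPM with PM2.5. Tspan5, a tetraspanin that travels with ADAM10, missed the first limit, with 41.4, 44.6 and 56.9 CPM with PBS and 42.3, 22.5 and 41.7 CPM with PM2.5. The other tested tetraspanins of the sheddase list did not have this pattern. Tspan14 was highest in PM2.5 replicate 2 (33.1, 36.2 and 33.5 CPM with PM2.5). Tspan17 was highest in PBS replicate 2 (2.65, 4.08 and 3.00 CPM with PBS).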
